A study of Drosophila ananassae with 22 samples.

Results

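The regions described here were 317 transcription start site clusters (TSCs) of the *D. ananassae* embryo that were narrow and strongly used. A TSC is a run of neighbouring 5′ ends of capped transcripts, as the authors' peak caller grouped them. The members were all TSCs that carried a gene identifier, spanned at most 20 bp and reached at least 25 RPM (reads scaled to a fixed total per collection) in at least 1 collection. They came from 18507 TSCs attributed to a gene and 27105 TSCs in all. They made up 4.41% of the 7196 attributed TSCs that reached 25 RPM, and the other 6879 of these, over 20 bp wide, are called the wider TSCs below. The members were chosen by their width and their maximum, so these values are given as descriptions only. Width was read from a peak list made on all collections together, and the maximum from the same time series as the profiles below. No profile comparison between narrow and wider TSCs was therefore tested.

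The study followed embryos of *Drosophila ananassae*, collected in windows of 1 hr from 0-1 hr to 21-22 hr after egg laying. RAMPAGE, which captures and sequences the 5′ ends of capped transcripts, was applied to whole embryos. Each collection was 1 barcoded sample of a pooled series, with no replicate, so no value has a replicate error. The 7-8 hr collection, left out by the authors, is left out of all values unless it is named. The embryos came from population cages, so that each sample pools many animals. Because the material was whole embryos, fewer cells of a type and less RNA per cell cannot be told apart.

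Core promoters are known to differ in how tightly they place initiation. At focused promoters transcription starts within a few bases, often downstream of a TATA box or at an Initiator, and in flies such promoters are common at genes with tissue- or stage-restricted expression. At dispersed promoters starts scatter over a longer stretch, and these are common at genes that most cells use. The identifiers of the members are not paired with gene names in the sources used here, so members are given by TSC name and position on the FlyBase r1.3 scaffolds. For 202 members a *D. melanogaster* gene identifier was inferred from the gene table, where 1 row had the same reads as all TSCs of the member's gene summed, in each of the 21 collections. It stands for the gene, also where the member is a minor TSC of it.

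The members were 1 to 20 bp wide, with a median of 15 bp and an interquartile range of 12 to 18 bp, against a median of 108 bp for the wider TSCs. Their reads over the 21 collections ranged from 128 to 28837 with a median of 996, against a median of 3600 for the wider TSCs. Their maxima had a median of 50.0 RPM and reached 1962.5 RPM, against a median of 100.3 RPM for the wider TSCs. Members were thus shallower as well as narrower. The collections had 1193107 to 12409410 reads in TSCs, and 25 RPM stood for 29.8 reads at 19-20 hr and 310 reads at 16-17 hr. At 19-20 hr a count of 0 allows a level of up to 2.51 RPM (3 reads). These limits cover counting error only.

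The 317 members belonged to 317 different genes but to 311 different regions. Entries for 5 regions, 11 entries in all, had the same coordinates and the same reads under 2 or 3 gene identifiers. An example is FBgn0094952_01 and FBgn0094953_01 at scaffold_13340:7477951-7477964, which both reached 185.3 RPM at 21-22 hr. Members lay on 24 scaffolds, 146 of them on the plus strand. Scaffolds 13266, 13340 and 13337 held 66, 65 and 63 members. Scaffold 12911 held 20 members, 9.01% of its attributed TSCs that reached 25 RPM, against 4.41% over all scaffolds.

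As a set, the narrow TSCs were weighted to late embryogenesis and to short periods of use. Of the 317 members, 156 (49.2%, 95% Wilson interval 43.8% to 54.7%, which treats TSCs as independent) were highest at 16 hr or later, against 15.2% of the 6879 wider TSCs. With TMM normalization, which raises the values of 14-15 hr and later relative to those of 0-14 hr, the late shares were 55.2% of members and 24.6% of wider TSCs. Before 3 hr, on the RPM scale, the order was the other way round, with 11.4% of members and 37.3% of the wider TSCs. Among the wider TSCs of 21 to 50 bp, however, this share was 10.7%. Below 300 reads it was 16.7% of 24 members and 6.67% of 15 wider TSCs. The last 3 collections alone, 19-20, 20-21 and 21-22 hr, were the highest for 37, 31 and 57 members (11.7%, 9.78% and 18.0%). Of the wider TSCs they were the highest for 4.65%, 2.09% and 3.95%. At 19-20 and 20-21 hr, 2 of the shallower collections, 25 RPM stood for only 29.8 and 36.1 reads. Among the members, 291 (91.8%) had at least 60% of their summed RPM within 8 hr, the limit by which the study called a TSC developmentally regulated, against 46.6% of the wider TSCs. By the study's other class, housekeeping, with less than 5-fold variation between collections, there was 1 member, against 824 wider TSCs (12.0%). A TSC with 0 reads in any collection cannot be in this class, so the share depends on depth. At 1000 to under 3000 reads it was 0.840% of 119 members, and 1.93% to 8.88% in the wider width classes.

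**Figure D1:**
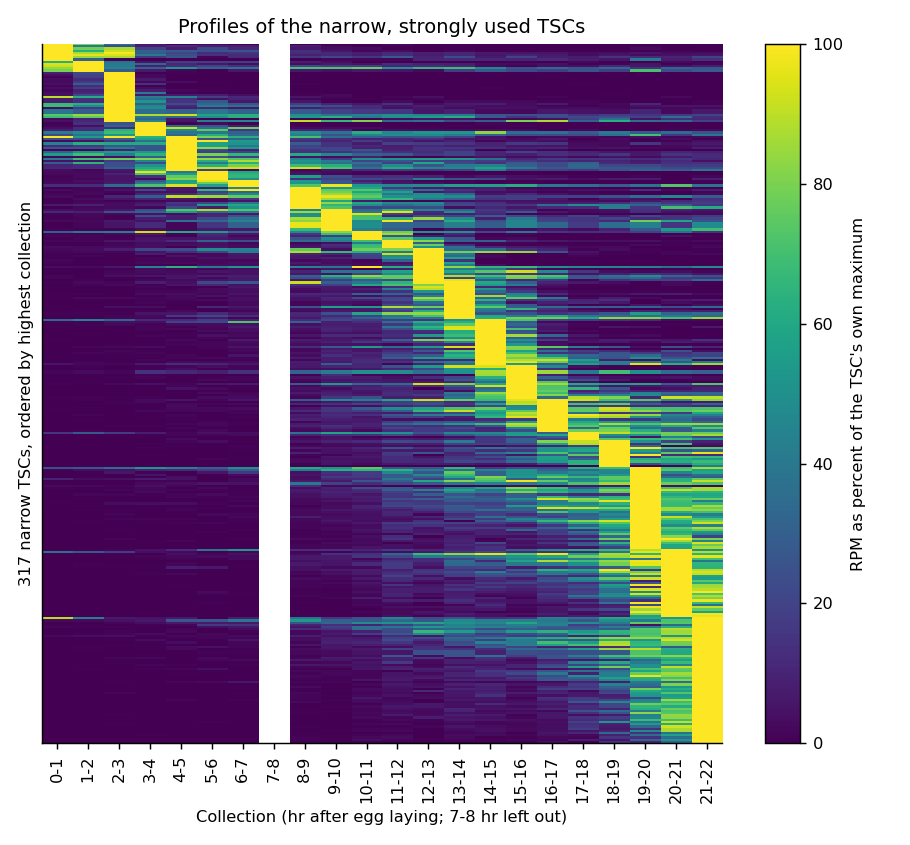
Heat map of the 317 narrow TSCs (rows, ordered by the collection in which each was highest) over the collections from 0-1 to 21-22 hr (columns, with 7-8 hr blank). Colour gives the RPM as a percentage of the TSC's own maximum, and the block of 57 rows highest at 21-22 hr fills the lower right, while 36 rows are highest before 3 hr.

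**Figure D2:**
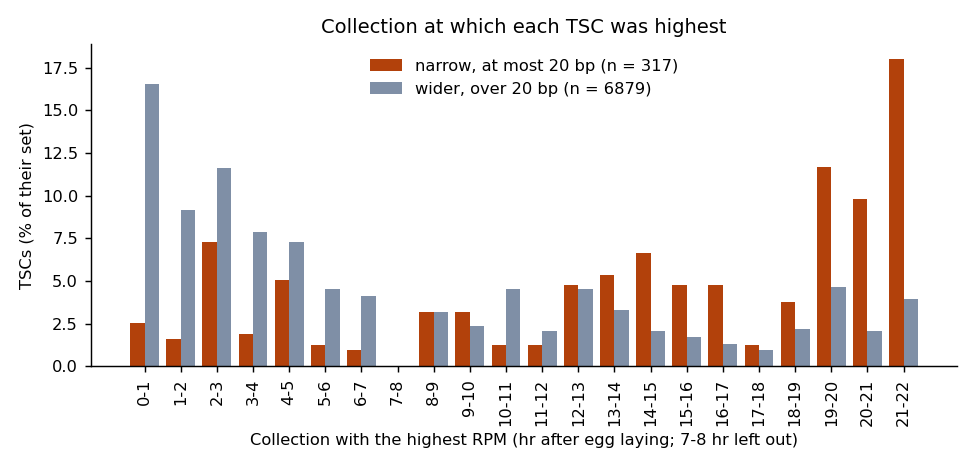
Share of the narrow TSCs (left bar of each pair, n = 317) and of the wider TSCs (right bar, n = 6879) that were highest in each collection, in percent of their set. At 21-22 hr the share was 18.0% of narrow and 3.95% of wider TSCs, and at 0-1 hr 2.52% of narrow and 16.5% of wider TSCs.

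The profiles can be put in 1 number, the Shannon entropy over the 21 collections. It is 0 bits when all RPM lie in 1 collection and 4.39 bits when they are spread evenly. The members had a median entropy of 3.17 bits with an interquartile range of 2.68 to 3.55 bits, and the wider TSCs had a median of 4.04 bits with a range of 3.67 to 4.21 bits. The lower quartile of the wider TSCs was thus above the upper quartile of the members. Only 64 members (20.2%) had a read in every collection, against 82.7% of the wider TSCs. In the first 3 collections 72 members (22.7%) had no read at all, against 2.43% of the wider TSCs. Both measures of absent reads depend on depth, and members had fewer reads than wider TSCs (medians of 996 and 3600). They were not set side by side within classes of reads.

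All members together took 0.206% of the RPM at 0-1 hr and 1.18% at 21-22 hr. The wider TSCs took 89.6% to 93% in every collection. The median member had 0.122 RPM at 0-1 hr, when 159 members had a read, and 16.6 RPM at 20-21 hr, when 265 had one. The value at 0-1 hr is that of 1 read, below the 0.367 RPM (3 reads) that a count of 0 allows there. The number with a read reached 303 at 16-17 hr, the deepest collection.

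The maximum and the depth are tied to these measures, so members and wider TSCs were also set side by side within classes of reads and of maximum. Among TSCs with 1000 to under 3000 reads, 48.7% of 119 members and 14.7% of 2414 wider TSCs were highest at 16 hr or later. The median entropy in this class was 3.44 bits in members and 3.98 bits in wider TSCs. It was 3.05 and 3.38 bits at 300 to under 1000 reads, and 2.19 and 2.48 bits under 300 reads. Developmentally regulated were 87.4% of members and 50.5% of wider TSCs at 1000 to under 3000 reads. At 300 to under 1000 reads they were 94.9% and 85.9%, and under 300 reads 100% of both sets. In the 2 deeper classes they were 87.1% and 40.8%, and 100% and 33.6%. A TSC of few reads could reach 25 RPM only where its level in some collection stood well above its level over the series. In the shallower classes the rule itself thus favours low entropy and a regulated call, in members and wider TSCs alike. Under 300 reads, with both sets at 100%, the regulated share cannot tell them apart. Among TSCs with fewer than 300 reads the late shares were 58.3% of 24 members and 20.0% of 15 wider TSCs. Among TSCs with 300 to under 1000 reads, the late shares were 52.9% of 136 members and 23.8% of 608 wider TSCs. In the classes of 3000 to under 10000 reads and of 10000 or more, with 31 and 7 members, the members' late shares were 32.3% and 28.6%, and those of wider TSCs were 12.8% and 15.7%. The members' late share was thus higher in every class of depth, and lower in the deeper classes than in the shallower ones. The collections in which a TSC of few reads can reach 25 RPM depend on their depth. The limit stood for 29.8 reads at 19-20 hr and 36.1 at 20-21 hr, but 310 at 16-17 hr. Nothing is therefore read from the fall of the late share with depth. Within classes of maximum the picture was flat. The late share was 50.0% of 158 members at 25 to 50 RPM and 46.6% of 73 members at 100 RPM or more, against 15.6% and 15.7% of wider TSCs.

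Width itself was graded. Among attributed TSCs that reached 25 RPM, the late share was 49.2% at 1 to 20 bp, 40.9% of 721 TSCs at 21 to 50 bp, 12.2% of 2277 at 51 to 100 bp, 11.6% of 2820 over 100 to 200 bp and 13.4% of 1061 over 200 bp. The step thus fell between the classes of 21 to 50 bp and 51 to 100 bp, and not at the 20 bp of the rule. TSCs of 1000 to under 3000 reads gave the same order at the narrow end, with 48.7%, 39.5% and 9.64% in the 3 narrowest classes. The share of developmentally regulated TSCs was 91.8% at 1 to 20 bp, 83.9% at 21 to 50 bp and 44% at 51 to 100 bp. In the same 3 classes 11.4%, 10.7% and 43.5% were highest before 3 hr, and 0.315%, 1.66% and 11.4% were housekeeping. Their median entropies were 3.17, 3.46 and 4.06 bits. On each of these measures the class of 21 to 50 bp was nearer to the members than to the class of 51 to 100 bp. Among the members, 38 of the 61 TSCs of 10 bp or less (62.3%) were highest at 16 hr or later, 51 of 108 at 11 to 15 bp (47.2%) and 67 of 148 at 16 to 20 bp (45.3%). Among the members, whose widths the rule cut at 20 bp, the Spearman rho was 0.24 between width and reads. It was 0.13 between width and entropy and 0.38 between reads and entropy, across 317 TSCs, which share their samples. Over the width classes median reads rose, from 996 at 1 to 20 bp and 1658 at 21 to 50 bp to 2620 at 51 to 100 bp. Over 200 bp the median was 5569 reads.

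**Figure D3:**
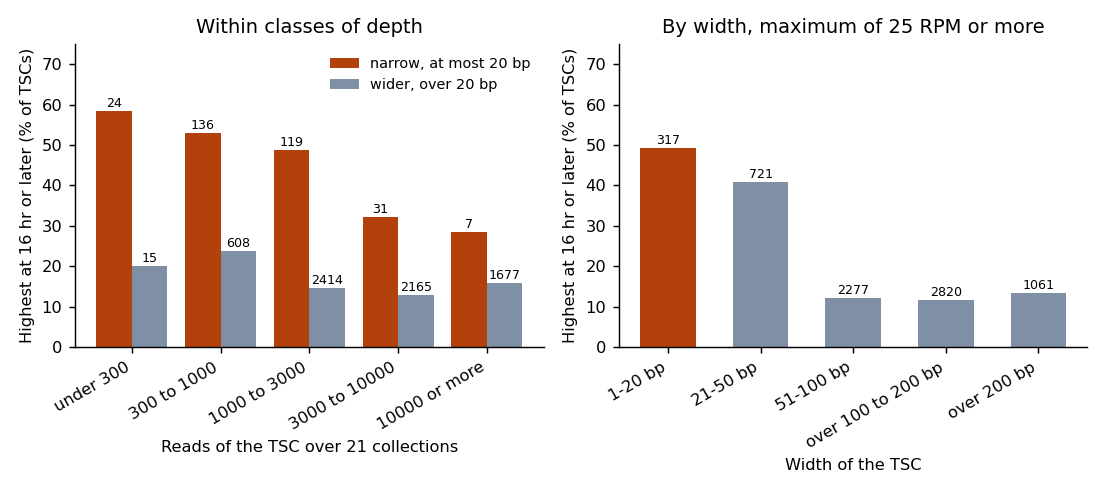
Share of TSCs highest at 16 hr or later, in percent, for narrow (left bars) and wider (right bars) TSCs within 5 classes of reads (left panel) and for 5 classes of width (right panel), with the number of TSCs above each bar. Narrow TSCs were above wider ones in every class of reads (48.7% and 14.7% at 1000 to under 3000 reads), and the share was 49.2% at 1 to 20 bp, 40.9% at 21 to 50 bp and 12.2% at 51 to 100 bp.

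Of the members, 310 (97.8%) changed with time by limma's spline test at an adjusted p of 0.05, read against 93.8% of all 11300 TSCs tested. Under the edgeR quasi-likelihood fit to recovered reads 313 members passed, read against 90.4% of all TSCs. The test uses the same profiles as the rule, and nothing is read from the members' excess over these shares. The 7 members that did not pass by limma were of several kinds, and 3 of them did not pass by edgeR either. FBgn0099235_02, the housekeeping member, lay between 6.93 and 26.7 RPM and had limma's adjusted p of 0.18 (edgeR 0.23). FBgn0093824_02 lay between 6.24 and 38.4 RPM with limma's adjusted p of 0.44 (edgeR 0.34). Another, FBgn0089240_01, had no read in 18 of the 21 collections, 0.40 RPM (1 read) at 11-12 hr, 70.3 RPM at 18-19 hr and 28.3 RPM at 21-22 hr, with limma's adjusted p of 0.061 (edgeR 0.00070). It had no read at 19-20 and 20-21 hr, between its 2 high collections.

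The narrow TSC with the highest maximum was FBgn0094878_01, 18 bp wide at scaffold_13340:6514262-6514279 on the plus strand (*D. melanogaster* identifier FBgn0038487). It was the only TSC of its gene. It had 0.245 RPM at 0-1 hr, 41.4 RPM in the median collection and 1962.5 RPM at 14-15 hr (2666 reads, exact 95% Poisson interval 1889 to 2038 RPM, counting error only). At 15-16 hr it still had 1582 RPM, and at 16-17 hr 214 RPM. The collection before the maximum, 13-14 hr, had 138 RPM, so most of the climb fell between 2 successive collections. FBgn0087344_02 (scaffold_13337:10353730-10353749, plus strand, 20 bp, FBgn0036593) had its maximum in the same collection, 1230 RPM at 14-15 hr. Its level was already 776 RPM at 13-14 hr, and 15.3 RPM were left at 16-17 hr.

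The third, FBgn0095240_01 (scaffold_13340:11287387-11287405, plus strand, 19 bp, FBgn0002631), was an early TSC with a broken profile. It had 47.6 RPM at 2-3 hr, 936 RPM at 3-4 hr, 385 RPM at 4-5 hr, 970 RPM at 5-6 hr and 581 RPM at 6-7 hr, and 35.3 RPM at 8-9 hr. A lower value at 4-5 hr than on either side was also seen for FBgn0098450_01 (scaffold_13117:4970889-4970908, plus strand, 20 bp, FBgn0000022), with 378 RPM at 3-4 hr, 285 RPM at 4-5 hr and 525 RPM at 5-6 hr. In contrast, FBgn0095967_01 (scaffold_5048:2198-2213, minus strand) was highest at 4-5 hr, at 404 RPM. The lower value was thus not shared by all members active at that age.

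FBgn0093400_01 (scaffold_13340:18084071-18084090, minus strand, 20 bp) reached 930 RPM at 12-13 hr, with 485 RPM at 11-12 hr, 541 RPM at 13-14 hr and 11.0 RPM at 14-15 hr. FBgn0087339_01 (scaffold_13337:10329415-10329431, plus strand, 17 bp) had the most reads of any member, 28837, and the broadest course of the 6 highest. It was at 598 RPM or more from 14-15 to 18-19 hr, with its maximum of 912 RPM at 16-17 hr, and kept 273 RPM at 21-22 hr. FBgn0101034_01 (scaffold_13337:12115599-12115608, minus strand, 10 bp, FBgn0036350) had 86.2 RPM at 1-2 hr, 798 RPM at 2-3 hr, 325 RPM at 3-4 hr and 8.89 RPM at 4-5 hr. These 6 maxima fell in 5 different collections from 2-3 to 16-17 hr, and none in the last 5 collections, where 141 members had theirs.

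**Figure D4:**
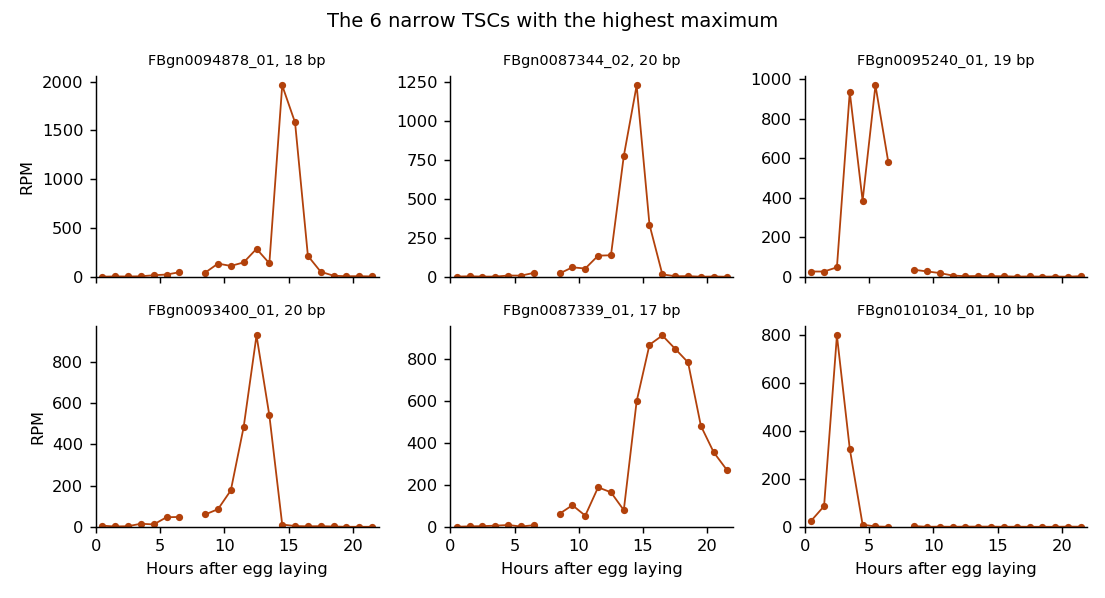
RPM of the 6 narrow TSCs with the highest maximum over hours after egg laying, 1 point per collection at the middle of its window, with a gap at 7-8 hr and a separate linear axis per TSC. Maxima run from 798 RPM (FBgn0101034_01, 2-3 hr) to 1962.5 RPM (FBgn0094878_01, 14-15 hr), and FBgn0095240_01 has 2 high points around a value of 385 RPM at 4-5 hr.

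The 36 members highest before 3 hr were of different kinds. FBgn0251802_01 (scaffold_13337:13948358-13948376, minus strand) was present from the start, with 477 RPM at 0-1 hr, 416 RPM at 1-2 hr and 474 RPM at 2-3 hr, and stayed above 15 RPM throughout. It was at 140 RPM at 3-4 hr. Others were nearly restricted to 2-3 hr. FBgn0091545_01 (scaffold_12916:7871440-7871455, minus strand, 16 bp, FBgn0043854), the member with the lowest entropy (0.69 bits), had 13.4 RPM at 0-1 hr, 91.2 RPM at 1-2 hr, 767 RPM at 2-3 hr and 4.73 RPM at 3-4 hr. Of its summed RPM, 87.1% lay at 2-3 hr. FBgn0090357_01 (scaffold_13266:11824603-11824610, plus strand, 8 bp, FBgn0263707) had the same course at a lower level, 6.11 RPM at 1-2 hr, 32.1 RPM at 2-3 hr and 0.82 RPM at 3-4 hr.

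Such pulses of 1 collection were concentrated at 2-3 hr. At least 50% of the summed RPM lay in 1 collection for 24 members (7.57%), against 85 wider TSCs (1.24%). Of the 23 members highest at 2-3 hr, 12 were of this kind, and their next collection was well below. FBgn0101814_01 had 183 RPM at 2-3 hr, against 32.8 RPM before and 5.76 RPM after, and FBgn0098818_01 had 198 RPM, against 34.3 RPM before and 4.11 RPM after. FBgn0095369_02 had 131 RPM, against 11.3 RPM before and 10.1 RPM after. These 3 TSCs, like the other members named below outside the highest of each window, were picked after their values were seen. Among the 800 wider TSCs highest at 2-3 hr, 27 (3.38%) were pulses of this kind. With 1 sample per collection, a pulse seen in 1 collection has no second sample behind it. For 259 members (81.7%) an adjacent collection had at least 50% of the maximum, against 93% of the wider TSCs, but this was so for only 16 of the 36 members highest before 3 hr.

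At 3-7 hr, 29 members were highest, with the highest median entropy of the 5 windows, 3.64 bits. The smallest of the top 4, FBgn0101619_01 (scaffold_13337:4152302-4152315, minus strand, FBgn0040296), had 62.5 RPM at 3-4 hr, 229 RPM at 6-7 hr, 123 RPM at 8-9 hr and 1.36 RPM at 12-13 hr. At 8-13 hr, 43 members were highest. FBgn0089181_01 (scaffold_13266:4469613-4469630, minus strand) was used in every collection, from 11.3 to 448 RPM, and was above 100 RPM at 2-3 hr as well as at 9-10 hr. FBgn0087860_01 (scaffold_13337:18965255-18965273, plus strand, FBgn0036786) had 157 RPM at 8-9 hr, 8.04 RPM at 9-10 hr, 163 RPM at 10-11 hr and 209 RPM at 12-13 hr. FBgn0089750_01 (scaffold_13266:3563355-3563367, plus strand) had 177 RPM at 8-9 hr and 201 RPM at 12-13 hr, with 78.1 RPM between them at 11-12 hr. These 3 TSCs had entropies of 3.81, 3.53 and 3.55 bits, above the 2.18 bits or less of the pulses at 2-3 hr.

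At 13-17 hr, 68 members were highest, and 67 of them (98.5%) were developmentally regulated, against 78.2% of the wider TSCs highest then. At 17-22 hr the shares were 97.2% of members and 67.7% of wider TSCs, and at 0-3 hr 80.6% and 33.1%. The members' share was higher in every window, but late wider TSCs were also regulated more often than the 46.6% of all wider TSCs. The wider TSCs' median entropy was 3.67 bits at 13-17 hr and 3.65 bits at 17-22 hr, against 3.20 and 3.05 bits in members. FBgn0100668_01 (scaffold_13337:18020036-18020053, minus strand) had 156 RPM at 14-15 hr, 437 RPM at 15-16 hr, 321 RPM at 16-17 hr and 22.0 RPM at 17-18 hr. The 141 members highest at 17-22 hr were the largest class. Their median over the first 3 collections was 0.052 RPM, and 63 of them (44.7%) had no read before 3 hr. This median is below the worth of 1 read in any of these collections (0.122 to 0.202 RPM). Over the last 3 collections their median was 33.3 RPM. FBgn0089440_01 (scaffold_13266:935650-935667, minus strand) had no read at 0-1 and 1-2 hr, 117 RPM at 17-18 hr, 286 RPM at 18-19 hr, 528 RPM at 20-21 hr and 657 RPM at 21-22 hr. FBgn0100898_01 (scaffold_13337:14242827-14242846, minus strand) had 52.5 RPM at 17-18 hr, 288 RPM at 19-20 hr and 422 RPM at 21-22 hr. FBgn0024472_02 (scaffold_13266:14040885-14040903, plus strand) was at 357 RPM and also highest at 21-22 hr. For these 3 TSCs the series ended at the maximum, so where the course turned is not known. FBgn0090119_02 (scaffold_13266:8376208-8376224, plus strand) differed, with 92.6 RPM at 1-2 hr, 5.78 RPM at 4-5 hr, 197 RPM at 9-10 hr and 338 RPM at 17-18 hr.

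The 3 members with the highest entropy had the most even courses. FBgn0251534_01 (scaffold_13333:314180-314185, plus strand), 6 bp wide, lay between 5.27 and 41 RPM, and its highest collection was 6-7 hr. FBgn0093824_02 and FBgn0099235_02 were given above. The last 2 were minor TSCs of their genes, with 3.44% and 2.12% of the gene's reads.

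Some members lay close together on the scaffolds. Between successive member regions the median distance was 213271 bp, but 25 successive pairs, of 46 regions, were at most 10000 bp apart, 13 of them on the same strand. In 18 of the 25 pairs (72%) the highest collections were at most 2 hr apart, against 28% of all 48205 pairs of member regions. The median Pearson r of log2(RPM + 1) over the 21 collections was 0.86 in close pairs and 0.25 in all pairs. These are descriptions over pairs that share samples and, in part, regions. FBgn0099866_01, FBgn0099865_01 and FBgn0099864_01, 3 TSCs within a few kb on the minus strand of scaffold 12911, were all highest at 8-9 hr, at 26.9, 127.1 and 38 RPM. FBgn0092209_01, FBgn0092210_01 and FBgn0092212_01 on scaffold 12916 were all highest at 21-22 hr, at 165, 56.3 and 94.9 RPM. FBgn0251792_01 and FBgn0251805_01, 737 bp apart on scaffold 13340, were both highest at 0-1 hr, at 105.8 and 72.5 RPM. The neighbour of the highest member of all did not share its course. FBgn0094878_01 was highest at 14-15 hr and FBgn0094151_01, 3792 bp away on the other strand, at 21-22 hr, with an r of -0.05.

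Apart from the entries that share a region, no member had another TSC on its strand within 100 bp, and the nearest was at 144 bp. For wider TSCs the nearest was at 136 bp, so an empty 100 bp did not set the members apart. The median distance to the nearest other TSC on the strand was 2364 bp for members and 1602 bp for wider TSCs. A TSC on the opposite strand within 500 bp upstream was found for 19 members (5.99%), against 34.8% of the wider TSCs. The shares are given as counts and were not tested against each other.

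Members were the only TSC of their gene in 213 cases (67.2%), against 42.9% of the wider TSCs. They were the most read TSC of their gene in 269 cases (84.9%), against 87.4% of the wider TSCs. An only TSC leads by default, which holds for 213 of the 269 members and 2950 of the 6015 leading wider TSCs. These 2 shares are therefore not a like comparison. Of the 104 members in genes with more than 1 TSC, 56 were the most read. The other 48 members were minor TSCs of genes with a wider leading TSC, not always near it. Leading and minor, like the shares of a gene's reads, were set by reads summed over the collections. Deep collections thus weigh more than shallow ones, and a minor TSC can have a higher maximum RPM than its leading TSC. FBgn0087315_02, FBgn0088846_01 and FBgn0089514_01, of 2, 1 and 4 bp, lay at -156990, -106911 and -105082 bp from their leading TSC (negative is upstream). They took 0.06%, 0.49% and 1.23% of their genes' reads. None of the leading TSCs was as narrow as 20 bp, and their median width was 137.5 bp. The median minor member took 6.06% of its gene's reads. Of the 48, 36 lay downstream of the leading TSC and 12 upstream. At 16 hr or later 13 of them (27.1%) were highest, against 143 of the 269 members (53.2%) that led their gene. The 269 include the 213 that were the only TSC of their gene, so the 2 groups also differ in the kind of gene. Before 3 hr the numbers were 14 (29.2%) and 22 (8.18%). Of the 156 late members, 143 thus led their gene.

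**Figure D5:**
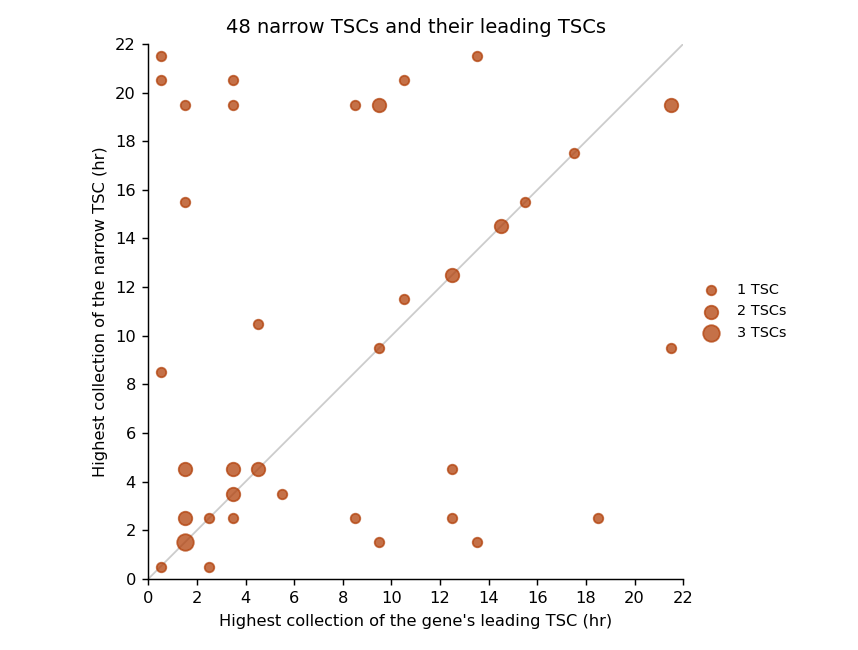
Collection in which each of the 48 minor narrow TSCs was highest (vertical axis, hr) against that of its gene's leading TSC (horizontal axis, hr), each at the middle of its window, with symbol size giving the number of TSCs at a point. The grey line marks equal collections, on which 16 TSCs lie, with 20 above it (later than the leading TSC) and 12 below.

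Minor members both followed and left the course of their leading TSC. The median Pearson r with it was 0.61 over the 21 collections, and 25 of the 48 were highest in the same window. The highest collection was the same as that of the leading TSC for 16 of the 48, later for 20 and earlier for 12, and for 23 it fell in another of the 5 windows. At their own highest collection 8 of them took more than 50% of the gene's RPM. FBgn0093248_02 had 44.9% of its gene's reads and was highest at 8-9 hr with 96.4 RPM, while the leading TSC FBgn0093248_01, 161 bp wide, was highest at 0-1 hr. FBgn0092636_03 had 96.6 RPM at 3-4 hr, while the leading TSC, FBgn0092636_02, reached its maximum of 24.6 RPM at 5-6 hr. FBgn0095541_01 had 47.2 RPM at 20-21 hr, while the leading TSC was highest at 0-1 hr, at 24.9 RPM. In contrast FBgn0099750_03, the minor member with the highest maximum, 174 RPM at 2-3 hr, followed its leading TSC with an r of 0.95 over the 21 collections.

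At the edges of the rule, FBgn0095603_02 and FBgn0093820_01, both 20 bp wide, had maxima of 25.0 and 25.6 RPM. FBgn0100416_02 and FBgn0092247_02, 21 bp wide and so just outside, had 25.4 and 25.7 RPM. FBgn0087784_04 and FBgn0089623_01 were just inside the limit of 25 RPM, both at 25.0 RPM, and FBgn0092055_01 and FBgn0092215_01 just outside, both at 24.7 RPM (82 reads). The counting interval of these 2, 19.6 to 30.7 RPM, includes the limit. Of the TSCs of at most 20 bp, 4653 attributed ones did not reach 25 RPM, and 47 that reached it had no gene identifier.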

How the data were processed

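The files cover 22 collections of 1 hr from *D. ananassae* embryos, each 1 barcoded sample of a pooled RAMPAGE series, and 7-8 hr is left out except where named. STAR was the aligner named in the submitters' processing notes. TSCs were called by the authors on all collections together and then attributed to genes. Expression was deposited as RPM per TSC and per gene, relative to the reads of the collection. The deposited peak list gives positions, strand and a score whose meaning is not given in the sources used here. RPM were turned back into reads with the value of 1 read per collection, and 100% came out whole within 0.1 read. Depth sets the precision: 1 read was worth 0.0806 to 0.838 RPM.

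Width was end minus start as the peak list gives them. The coordinates printed here are 1-based and include both ends, so width counts both end bases. Change with time was tested over the 11300 TSCs that reached 10 RPM with a natural spline of 4 degrees of freedom, fitted to log2(RPM + 1) in limma and, with TMM, to the recovered reads in edgeR (quasi-likelihood), with Benjamini-Hochberg adjustment at 0.05. In data simulated for this test, 100% of 100 TSCs with an 8-fold change were called by both tools. Of 100 with a 2-fold change, 7.0% (limma) and 15.0% (edgeR) were called. The other 11100 simulated TSCs were flat, while limma called 93.8% of TSCs in the real data. Adjustment was therefore stricter in the simulation, and these shares do not give the detection rate in the real data. The members and lists were chosen with earlier results of these data known. The TSCs to name were the 6 with the highest maximum, the 4 highest of each of the 5 windows (0-3, 3-7, 8-13, 13-17 and 17-22 hr), the 3 lowest and 3 highest by entropy, and those at the limits of the rule. None of the member identifiers and none of 179 symbols in 8 gene lists was found in the reference gene table, so no list was counted, and no genome sequence was used here. The deposited smoothed series was not used. Tests were run in limma 3.58.1 and edgeR 4.0.16 under R 4.3.3, and all else in Python 3.11.15 (scipy 1.17.1, pandas 2.3.3, numpy 2.4.6, matplotlib 3.10.9).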

Additional observations from a re-analysis of the deposited data

How the results depend on the processing

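Of 42 recomputed values other than those without a collection, 30 stayed within 1.5 times the count or within the 95% interval. These intervals treat TSCs as independent and do not measure spread from processing, so the 30 is a description only. The number of members followed the limits of the rule: 61 at a width of at most 10 bp, 621 at 30 bp, 684 at 10 RPM and 159 at 50 RPM. With only the members of at least 1000 reads, 87.9% were developmentally regulated and the median entropy was 3.42 bits. At a width of at most 10 bp the late share was 62.3%, the median entropy 2.96 bits and the housekeeping share 0 of 61. With TMM normalization, whose factors were 0.564 at 17-18 hr to 1.35 at 11-12 hr, 55.2% of members and 24.6% of wider TSCs were highest at 16 hr or later. Within 250 bp, 12.3% of members had another entry on the same strand, or 8.83% (28 members) where entries of the same region were not counted, an alternative chosen after seeing the data.

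With each collection left out in turn, the members numbered 300 to 317, those changing with time 309 to 312, the developmentally regulated share was 89.6% to 92.7%, the housekeeping share 0.315% to 0.946%, the late share 46.4% to 50.8% and the median entropy 3.05 to 3.17 bits. With 7-8 hr included 295 members and 6495 of all 11300 TSCs changed with time, against 310 and 10595 without it. Counting each region once, and leaving collections out of the rule, were chosen after seeing the data, and each region counted once gave a late share of 49.5%. No paired analysis was possible because no collection has a replicate. Core promoter motifs were not run, since no genome sequence was used here. Depth limits low values most at 19-20 hr, the collection with the fewest reads.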

Other observations

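The 7-8 hr collection, left out of the other values, had 579 reads in TSCs. Of these, 5 lay in 4 members: FBgn0087339_01 had 2 reads, and FBgn0087149_01, FBgn0087344_02 and FBgn0100898_01 had 1 each. None of these counts is above the 3 reads that a count of 0 allows, so nothing is read from them about single members.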
